A study of Mus musculus with 6 samples.

Results

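Oxidative phosphorylation was examined through the 97 genes, of 33456 listed, whose symbols name subunits of the respiratory complexes or of ATP synthase. They were chosen by symbol alone: Nduf genes of the a, b, c, s and v series, Sdha to Sdhd, Uqcr genes, Cox4 to Cox8 genes, Atp5 genes and every symbol starting with mt-. Of these, 84 are encoded in the nucleus and 13 in mitochondrial DNA. The nuclear set holds 35 genes of complex I, 4 of complex II, 8 of complex III, 20 of complex IV, 15 of complex V and 2 Atp5-named genes outside these (Atp5s and Atp5sl). The mitochondrial set, written mt-, holds 7 genes of complex I, 1 of complex III, 3 of complex IV and 2 of complex V. Ndufa4 and its relative Ndufa4l2 were counted with complex IV, where the Ndufa4 protein resides.

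The respiratory chain passes electrons from NADH and succinate to oxygen and pumps protons across the inner mitochondrial membrane, and ATP synthase (complex V) uses that gradient to make ATP. Complex I oxidises NADH, complex II oxidises succinate, complex III passes electrons to cytochrome c, and complex IV hands them to oxygen. Apart from complex II, which is wholly nuclear, each complex is built from proteins of both genomes. In macrophages, reliance on this chain is known to differ with the activation state.

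The samples were cells of mouse visceral (epididymal) fat, digested with collagenase and sorted by flow cytometry for CD45, found on leukocytes, and CD11b, an integrin subunit typical of myeloid cells. There were 3 samples labelled control and 3 labelled HFD, the high-fat diet group of a study of long-term obesity. The labels used here give no age, sex, strain, time on diet or number of animals per sample, nor which libraries were prepared together, so diet and library preparation cannot be told apart. No label states that samples are separate animals, so the p-values reflect the variation among these samples alone, and that variation could be technical.

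Each sample is a matrix of unique molecular identifiers (UMIs), counts of captured RNA molecules per gene and cell. Of 2195 cell barcodes, 1082 were listed in more than 1 sample, and between 62.4% and 90.2% of a sample's entries were shared. Each barcode was therefore counted only in the sample where it had most UMIs. This left 1030 control cells (267 to 400 per sample) and 1165 HFD cells (314 to 461), with 2011877 to 3912308 UMIs per control sample and 3672686 to 5739043 per HFD sample. Cells rich in mt- RNA were kept, because mt- genes are members. Levels are CPM, UMIs scaled to a common library total, with edgeR's TMM factors unless called plain. Differences are log2 values, HFD minus control, with their standard error (SE).

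Cells were clustered without the 97 genes, and classes were called from marker genes. Macrophage-like cells numbered 545 in control and 557 in HFD samples (121 to 225 and 153 to 229 per sample). Different clusters held most of this class in each diet. Clusters led by Cd209f and F13a1 were mostly control, and clusters led by Spp1 and Mmp12 mostly HFD. Left unnamed, and outside this class, were 198 control and 214 HFD cells. They lay in 2 clusters. The cluster led by Hbb-bs (2, 2 and 4 cells in control and 80, 56 and 70 in HFD samples) raised all 12 macrophage markers. The cluster led by S100a9 (85, 55 and 50 in control and 3, 1 and 4 in HFD samples) raised 6 of the 12. The other classes tested were fibroblast-like cells (3 to 11 per control and 53 to 79 per HFD sample), monocyte-like cells (15 to 32 and 13 to 18) and cluster 5, led by Klrd1, H2-Oa and Cd209a (22 to 54 and 15 to 19). Cluster 5 raised 7 markers of type 2 dendritic cells (cDC2), but its 10 leading genes held 1 of them and 2 of the Ear2 and Retnla list, so it is given by number and not as a cell type. Transcripts of the sort antigens were seen in 67.4% (Ptprc, CD45) and 58.4% (Itgam, CD11b) of macrophage-like cells, but in 12.6% and 7.36% of fibroblast-like cells, whose median depths were 8764 and 6823 UMIs.

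Summed over all cells of a sample, 7 of the 13 mitochondrially encoded genes were lower in HFD samples, while nuclear members moved in both directions. Of the 94 members tested, 13 rose and 14 fell (edgeR quasi-likelihood test, Benjamini-Hochberg adjusted p below 0.05), against 32.7% of all 10475 genes tested (15.4% higher, 17.4% lower). No mt- gene rose and 7 of 13 fell. Of 81 nuclear members tested, 13 rose and 7 fell, shares near or below those of all genes. The median difference was -0.38 for mt- genes, 0.07 for nuclear members and -0.01 for all genes. Without TMM scaling the median of all genes was 0.13, and 29 members rose and 7 fell (80.6% higher, against 48.1% with TMM). Every HFD sample stood above every control sample in 27 nuclear members, and below in 17 nuclear members and 8 mt- genes, where 48.4% of all genes were without overlap (23.5% above, 24.9% below). The count of calls fell to 12 without HFD sample 1, 13 without HFD sample 3, and 17 without control sample 2 or HFD sample 2. The share of all genes called without TMM or with a sample left out is not given here. In these sums, fewer cells of a type and less RNA per cell cannot be told apart.

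**Figure D1:**
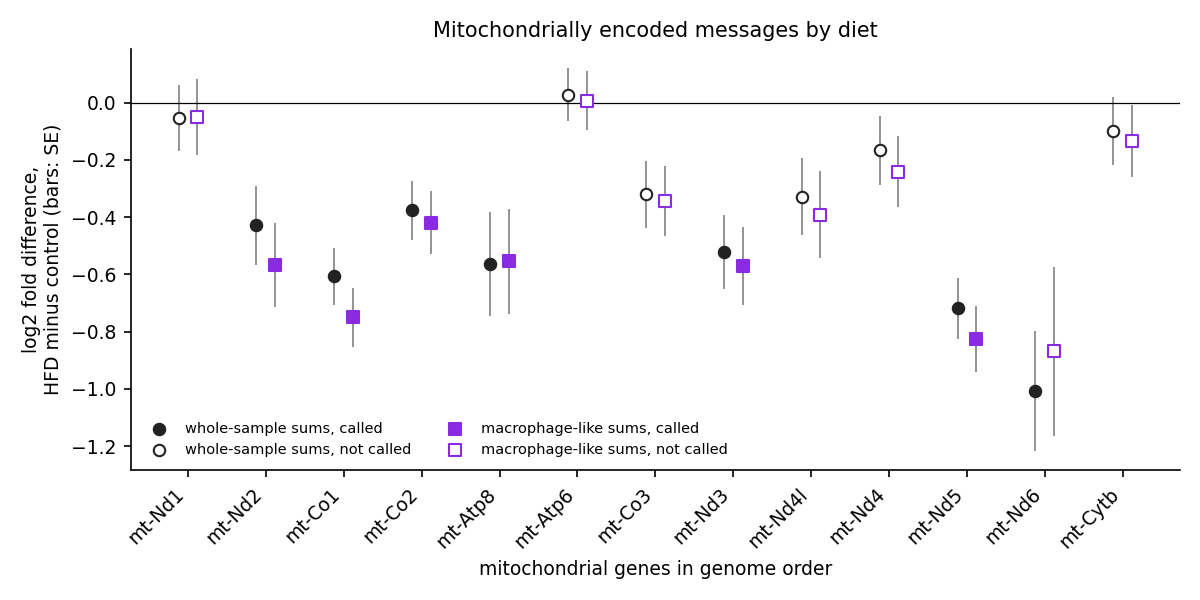
The log2 difference (HFD minus control) of each of the 13 mt- genes, in their order along mitochondrial DNA, in sums over all cells and over macrophage-like cells; bars are standard errors. Over all cells mt-Atp8 fell by 0.56 while the next gene, mt-Atp6, stood at 0.03. The reading frames of this pair share 43 bases, so reads there cannot be assigned with certainty.

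Among mt- genes of complex I, mt-Nd5 and mt-Nd2, which encode proton-pumping membrane subunits, and mt-Nd3, a small membrane subunit, all fell. mt-Nd5 measured 297, 346 and 383 CPM in control samples 1 to 3 and 200, 212 and 210 CPM in HFD samples. Every HFD sample was below every control sample, and the difference was -0.72 ± 0.11 (SE, n = 3 per group; edgeR adjusted p = 0.0013). mt-Nd6, the only protein gene on the opposite strand, measured 19.8, 24.3 and 32.8 CPM in control and 11.3, 12.2 and 14.6 CPM in HFD samples. The groups did not overlap, with a difference of -1.01 ± 0.21 (edgeR adjusted p = 0.0065), at low counts. mt-Nd1, another membrane subunit, measured 2858, 2724 and 3505 CPM in control and 2911, 3175 and 2666 CPM in HFD samples. Those groups overlapped and the difference was -0.05.

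The catalytic core of complex IV is encoded by mt-Co1 and mt-Co2, and both fell. mt-Co1 measured 6173, 6488 and 7695 CPM in control samples against 4566, 4488 and 4311 CPM in HFD samples. The groups did not overlap (-0.61 ± 0.10; edgeR adjusted p = 0.0021). mt-Co2 differed by -0.38 ± 0.10 (edgeR adjusted p = 0.023), and mt-Co3, a structural core subunit, by -0.32 (edgeR adjusted p = 0.064), which did not pass. The counts assigned to the complex V pair moved unequally. mt-Atp8, a small membrane subunit, fell by 0.56 (edgeR adjusted p = 0.042), whereas mt-Atp6, the proton-channel subunit, measured 6022, 6315 and 7146 CPM in control and 6640, 6963 and 6250 CPM in HFD samples. The mt-Atp6 groups overlapped (0.03 ± 0.09; edgeR adjusted p = 0.85). The reading frames of mt-Atp8 and mt-Atp6 share 43 bases and those of mt-Nd4l and mt-Nd4 share 7, so reads there cannot be assigned with certainty, and the use of strand in counting, which bears on mt-Nd6, is not stated in the labels. mt-Cytb, the mitochondrial gene of complex III, differed by -0.10 and did not pass.

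Nuclear members moved in both directions over all cells. In complex I, 7 of 35 rose and 2 fell. Those that rose included Ndufa9, a subunit near the quinone site, at 53.3, 42.9 and 59.3 CPM in control and 75.6, 67.4 and 74.9 CPM in HFD samples. The groups did not overlap (0.48 ± 0.13; edgeR adjusted p = 0.018). Ndufa6, an accessory subunit, fell from 430, 440 and 426 CPM to 317, 313 and 327 CPM. The HFD samples were all lower (-0.44 ± 0.08; edgeR adjusted p = 0.0031). The others that rose were Ndufs3 (0.40), Ndufv2 (0.38), Ndufa12 (0.37), Ndufa10 (0.35), Ndufv3 (0.31) and Ndufa8 (0.24), and Ndufb3 (-0.29) fell. In complex II, Sdhb, the iron-sulfur subunit, rose from 162, 173 and 161 CPM to 225, 218 and 219 CPM without overlap (0.42 ± 0.08; edgeR adjusted p = 0.004). Sdhc, a membrane anchor, also rose (0.39; edgeR adjusted p = 0.038), which was all that passed of the 4 genes.

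In complex III, Uqcrc1, a core subunit, rose by 0.27 on the log2 scale (edgeR adjusted p = 0.044), while the hinge subunit Uqcrh and the iron-sulfur subunit Uqcrfs1 fell. Uqcrh measured 606, 669 and 663 CPM in control and 486, 480 and 504 CPM in HFD samples, with no overlap (-0.40 ± 0.08; edgeR adjusted p = 0.0067). Processed copies of such genes exist in the genome, and reads shared with them could be split. In complex IV the 4 called genes of 17 tested were all tissue-restricted forms. Ndufa4l2, Cox8b and Cox6a2 rose and Cox6b2 fell. They are described below with the cell classes that held them. In complex V no gene rose and 2 of 15 fell. Atp5e, a small subunit of the central stalk, measured 629, 664 and 640 CPM in control and 501, 440 and 506 CPM in HFD samples. No HFD sample reached a control sample (-0.42 ± 0.09; edgeR adjusted p = 0.0074). Atp5h, of the peripheral stalk, fell by 0.32 (edgeR adjusted p = 0.024). Of 26 called members checked one by one, 18 lost their call under at least 1 alternative. The 5 that passed under every alternative were mt-Co1, mt-Nd5, Ndufa6, Atp5e and Uqcrh. Ndufa4l2, Cox8b and Cox6a2 passed wherever they had enough counts to be tested.

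**Figure D2:**
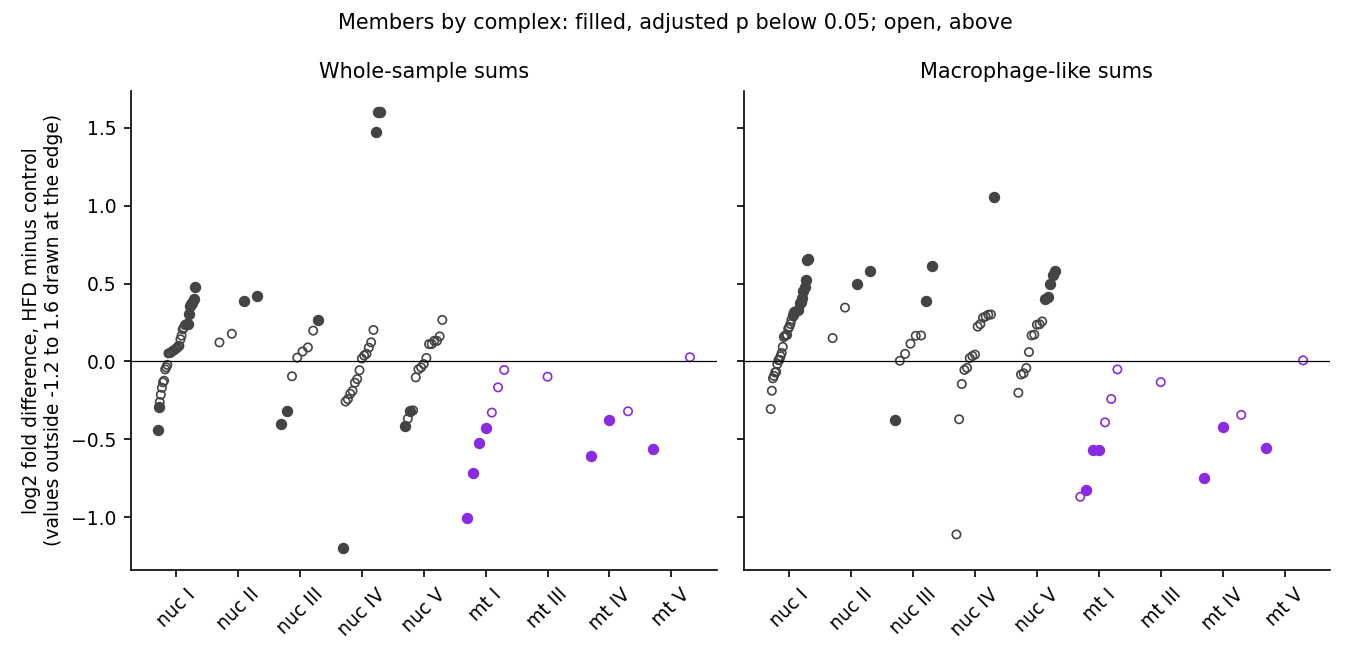
The log2 difference (HFD minus control) of each tested member, by complex and genome of origin, in sums over all cells and over macrophage-like cells. Each point is 1 gene, filled where the adjusted p was below 0.05, values beyond the axis are drawn at its edge, and Atp5s and Atp5sl are not drawn. In macrophage-like sums the called nuclear members are higher except Uqcrh, and the called mt- genes are lower.

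Within macrophage-like cells the nuclear members that changed were nearly all higher in HFD samples and the mt- genes that changed were all lower. Of 78 nuclear members tested, 21 rose and 1 fell, and of 13 mt- genes none rose and 6 fell (edgeR adjusted p below 0.05), against 30.2% of all 8612 genes called (13.2% higher, 17.0% lower). The median difference was 0.19 for nuclear members, -0.42 for mt- genes and -0.03 for all genes. In 41 nuclear members every HFD sample stood above every control sample and in 5 every HFD sample stood below, where 45.9% of all genes were without overlap (22.2% above, 23.7% below). Of the nuclear genes that rose, 11 also rose over all cells and 10 passed only here, a difference that was not itself tested. Of the 7 nuclear genes that fell over all cells, 1 also fell here, Uqcrh (-0.38; edgeR adjusted p = 0.02). Atp5e (-0.04) and Ndufa6 (-0.19) did not pass.

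These counts were sensitive to the samples and to the shared barcodes. The 28 calls became 8 without HFD sample 1, 9 without HFD sample 3 and 13 without control sample 2. With every entry counted as deposited and the class called anew from those entries, 3 members rose and 8 fell. With barcodes listed in exactly 1 sample, 8 rose and 1 fell. Without TMM scaling 34 rose and 5 fell (87.2% higher, against 75% with it). The share of all genes called under these alternatives is not given here, so the counts describe sensitivity only. Of 22 called members checked one by one, none passed under every alternative. With the Hbb-bs-led cluster added to the class, 2 of these lost their call, Ndufv3 and Sdhc. mt-Co1, mt-Nd5, Uqcrc1, Sdhb, Ndufv2, Atp5g1 and Atp5b passed with each sample left out in turn.

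By complex, 11 of 35 nuclear complex I genes rose in macrophage-like cells, with a median of 0.22 over the 35. Ndufv2, a flavoprotein-arm subunit carrying an iron-sulfur cluster, measured 124, 121 and 112 CPM in control and 193, 169 and 201 CPM in HFD samples. The HFD samples were all higher (0.66 ± 0.12; edgeR adjusted p = 0.0033). Ndufa9 rose by 0.65 ± 0.15 on the log2 scale (edgeR adjusted p = 0.012), from 52.1, 41.3 and 61.9 CPM to 87.4, 74.6 and 86.1 CPM. The other 9 were Ndufa12, Ndufa10, Ndufs3, Ndufb8, Ndufc1, Ndufv3, Ndufa8, Ndufb4 and Ndufa13, with differences from 0.30 to 0.52.

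In complex II, Sdhb measured 169, 181 and 160 CPM in control and 256, 253 and 253 CPM in HFD macrophage-like cells. The groups were well apart (0.58 ± 0.10; edgeR adjusted p = 0.0034). Sdhc rose by 0.50 (edgeR adjusted p = 0.038), while the flavoprotein Sdha (0.15) and the second anchor Sdhd (0.35) did not pass. In complex III both core subunits rose. Uqcrc1 went from 148, 148 and 132 CPM to 211, 225 and 218 CPM without overlap (0.61 ± 0.11; edgeR adjusted p = 0.0032), and Uqcrc2 differed by 0.39 (edgeR adjusted p = 0.028). In nuclear complex IV 1 of 15 rose, the tissue-restricted Cox6a2, and the median was 0.04. Cox4i1, the common form of its regulatory subunit, differed by -0.05.

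ATP synthase had 5 of 15 nuclear genes higher in macrophage-like cells. Atp5b, the catalytic subunit, measured 355, 362 and 362 CPM in control and 530, 508 and 578 CPM in HFD samples. The HFD samples were all higher (0.58 ± 0.10; edgeR adjusted p = 0.0033). Atp5g1, 1 of several genes for the same ring subunit, rose from 236, 239 and 253 CPM to 378, 314 and 377 CPM (0.55 ± 0.11; edgeR adjusted p = 0.0066). Atp5c1, the rotating central stalk, rose from 253, 223 and 261 CPM to 354, 306 and 385 CPM (0.50; edgeR adjusted p = 0.014). Atp5f1 and Atp5o of the peripheral stalk rose by 0.41 and 0.40. In both genes the sign turned when entries were counted as deposited and the class was called anew from them (-0.07 and -0.10).

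Marker genes of other cells and states moved with diet in the same macrophage-like sums. Of 28 marker lists, 18 were without overlap between diets, 6 higher and 12 lower in HFD samples. The 10 genes of the lipid-associated macrophage list summed to 729 to 5358 plain CPM in control and 9272 to 12846 in HFD samples. The 10 perivascular resident genes summed to 4305 to 6407 and 1379 to 1488, and the 7 genes of the Ear2 and Retnla list to 11102 to 13257 and 857 to 2003. The fibroblast list summed to 245 to 422 and 859 to 946, the cDC2 list to 1355 to 1601 and 693 to 858, and the monocyte list to 300 to 498 and 150 to 212. The list of dissociation and stress genes summed to 11266 to 13163 and 7657 to 8261. No marker of the lists named here was at 0. Cytosolic ribosomal protein genes made up 14.8% to 16.5% of UMIs in control and 13.2% to 13.6% in HFD samples. Their part in the member differences was not tested.

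Promoter sequence is shown for members that moved, because nuclear respiratory genes are known targets of the transcription factor NRF1 and of ETS-family factors. Windows of 250 bases before the RefSeq transcription start were found for 66 of the 84 nuclear members (71 windows, assembly GRCm38.p6). Matching used the gene ID first and otherwise the symbol. The NRF1 motif, GCGC followed by any base and then TGCGC, searched on both strands like the others, was in 14 of 71 windows (19.7%), against 3.74% of all 32851 promoter windows. The ETS motif CCGGAAGT was in 3 (4.23%, against 2.88%), the YY1 motif AAGATGGCG in 1 (1.41%, against 0.606%) and the SP1 motif GGGCGG in 23 (32.4%, against 32.7%). Members that rose in macrophage-like cells held the NRF1 motif in 3 of 18 windows (16.7%), and the other tested members in 11 of 51 (21.6%). For the SP1 motif the counts were 11 of 18 (61.1%) and 11 of 51 (21.6%). These matches are descriptions of letters and not of binding.

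The last 200 bases before the start are printed 5′ to 3′ on the gene's own strand, with NRF1 and ETS matches in capitals. Atp5c1 has 2 windows, and a window that holds a motif is printed. Atp5c1 (chr2:10080433-10080632, minus strand), Ndufa8 (chr2:36049339-36049538, minus strand) and Ndufb4 (chr16:37654369-37654568, minus strand) rose in macrophage-like cells and hold NRF1 matches, 3 of them in Ndufb4; these promoters were picked after the values were seen. Uqcrc1 (chr9:108936448-108936647, plus strand) and Atp5b (chr10:128083107-128083306, plus strand) rose as well and hold neither motif in this window. Uqcrh (chr4:116075071-116075270, minus strand), the nuclear member that fell in both sums, holds an ETS match. Atp5h, which fell over all cells and is not printed, holds both an NRF1 and an ETS match in this window.
Atp5c1: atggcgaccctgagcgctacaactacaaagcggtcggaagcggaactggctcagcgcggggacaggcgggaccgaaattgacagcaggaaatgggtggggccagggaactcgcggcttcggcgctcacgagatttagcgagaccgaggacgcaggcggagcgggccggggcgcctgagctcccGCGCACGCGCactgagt
Ndufa8: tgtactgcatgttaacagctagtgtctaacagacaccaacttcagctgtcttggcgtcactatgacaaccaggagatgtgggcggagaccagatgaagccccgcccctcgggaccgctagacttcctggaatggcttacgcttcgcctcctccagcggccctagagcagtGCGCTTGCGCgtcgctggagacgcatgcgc
Ndufb4: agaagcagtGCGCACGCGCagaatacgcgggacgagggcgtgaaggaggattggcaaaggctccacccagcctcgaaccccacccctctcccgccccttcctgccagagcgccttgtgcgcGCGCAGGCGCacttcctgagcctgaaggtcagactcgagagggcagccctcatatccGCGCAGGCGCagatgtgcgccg
Uqcrc1: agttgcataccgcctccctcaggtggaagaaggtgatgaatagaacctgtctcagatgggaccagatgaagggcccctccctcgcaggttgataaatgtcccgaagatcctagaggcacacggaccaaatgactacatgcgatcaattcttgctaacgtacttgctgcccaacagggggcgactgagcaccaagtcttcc
Atp5b: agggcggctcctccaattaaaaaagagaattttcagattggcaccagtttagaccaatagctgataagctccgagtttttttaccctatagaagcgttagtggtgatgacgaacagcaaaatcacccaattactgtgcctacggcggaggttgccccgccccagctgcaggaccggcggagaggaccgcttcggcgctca
Uqcrh: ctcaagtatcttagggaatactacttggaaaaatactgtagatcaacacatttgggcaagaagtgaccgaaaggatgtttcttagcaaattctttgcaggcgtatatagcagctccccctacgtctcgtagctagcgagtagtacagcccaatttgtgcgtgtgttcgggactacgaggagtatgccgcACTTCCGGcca

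Size of change was not tested against motifs. Ndufb4, with its 3 matches, rose from 165, 174 and 169 CPM to 215, 203 and 211 CPM in macrophage-like cells (0.31; edgeR adjusted p = 0.041). Uqcrc1, with none, showed a difference of 0.61.

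The 6 mt- genes that fell in macrophage-like cells had also fallen over all cells, and mt-Nd6 (-0.87; edgeR adjusted p = 0.050) did not pass. mt-Co1 measured 7693, 7314 and 8760 CPM in control and 4682, 4971 and 4479 CPM in HFD samples. The HFD samples were all lower (-0.75 ± 0.10; edgeR adjusted p = 0.001). mt-Nd5 went from 345, 374 and 432 CPM to 207, 226 and 217 CPM (-0.83 ± 0.12; edgeR adjusted p = 0.0011). mt-Nd2, mt-Nd3, mt-Co2 and mt-Atp8 fell by 0.42 to 0.57. mt-Atp6 measured 7182, 6707 and 7814 CPM in control and 7000, 7899 and 6910 CPM in HFD samples, an overlap with a difference of 0.01 ± 0.10 (edgeR adjusted p = 0.97). With entries as deposited, mt-Atp8 and mt-Nd3 stood at 0.23 and 0.02.

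As a share of all UMIs, nuclear members made up 1.89%, 2.06% and 2.08% in control and 2.40%, 2.21% and 2.43% in HFD macrophage-like cells. The groups did not overlap (2.01% ± 0.10 and 2.35% ± 0.12, SD, n = 3; two-sided exact permutation p = 0.1, the smallest that 3 against 3 allows; 0.2 after Benjamini-Hochberg adjustment over 6 tests). mt- genes made up 3.28%, 3.30% and 3.97% in control and 2.90%, 3.34% and 2.74% in HFD samples, which overlapped (exact permutation p = 0.3). Their log2 ratio, mt- over nuclear, was 0.79, 0.68 and 0.94 in control against 0.27, 0.59 and 0.18 in HFD samples, without overlap (exact permutation p = 0.1, adjusted 0.2). In barcodes listed in exactly 1 sample the mean mt- share turned the other way and was higher in HFD samples. Over all cells the nuclear share was 2.04% ± 0.06 in control and 2.21% ± 0.09 in HFD samples (exact permutation p = 0.1, adjusted 0.2), and the mt- share 3.04% ± 0.44 and 2.79% ± 0.21 (exact permutation p = 0.5).

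By complex, nuclear complex II went from 0.0420% to 0.0599% of UMIs in macrophage-like cells and nuclear complex I from 0.590% to 0.697%. In all 5 nuclear complexes the HFD samples stood above the control samples, and in mt- complex IV they stood below, from 1.73% to 1.27% (exact permutation p = 0.1 each, 0.15 after adjustment over 9 tests). In these shares, which carry no TMM factors, complex IV was higher in nuclear and lower in mt- genes in each HFD sample. TMM factors were 0.946 to 0.996 in control and 1.02 to 1.03 in HFD macrophage-like sums. With them, Cox6a2 was the only nuclear complex IV gene called. The part of scaling in the shares was not tested.

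**Figure D3:**
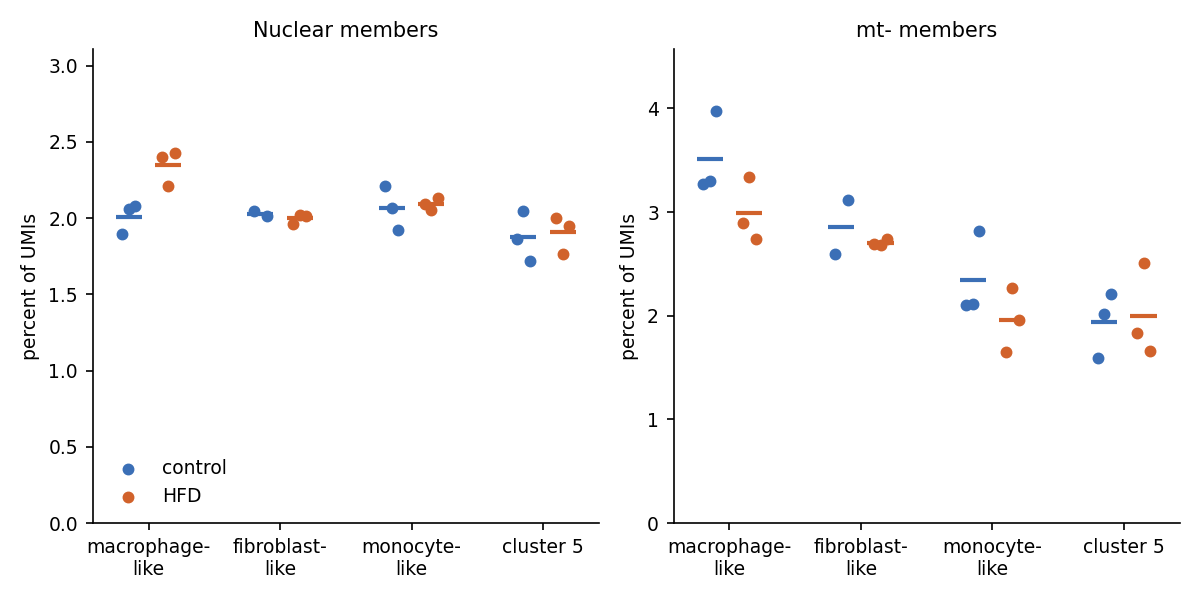
The percent of UMIs from nuclear members and from mt- genes by cell class; each point is 1 sample with at least 10 cells, coloured by diet, and bars are means. Macrophage-like nuclear shares are 1.89% to 2.08% in control and 2.21% to 2.43% in HFD samples; cluster 5 and monocyte-like cells have lower mt- shares than macrophage-like cells.

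The make-up of the mitochondrial RNA itself was also compared, a measure that does not depend on scaling between samples. The share of mt-Co1 was lower and that of mt-Atp6 higher in every HFD sample. mt-Co1 was 21.4%, 21.1% and 21.3% of mt- UMIs in control against 17.2%, 15.7% and 17.3% in HFD samples over all cells. mt-Atp6 was 20.8%, 20.5% and 19.8% in control against 25.0%, 24.4% and 25.1% in HFD samples. Neither pair of groups overlapped (exact permutation p = 0.1 each, adjusted 0.13). In macrophage-like cells mt-Co1 went from a mean of 21.7% to 16.1% and mt-Atp6 from 19.9% to 24.8%. mt-Nd5 went from 1.05% to 0.741% there. With entries as deposited the mt-Co1 means over all cells were 19.0% and 16.5%.

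Within clusters, mt-Co1 ranged widely from cluster to cluster. It was 24.4% of mt- UMIs in the F13a1-led control cluster and 13.9% in the Mmp12-led HFD cluster. In the Cd209f-led macrophage-like cluster, present in both diets, it was 23.2% in control (22.9% to 23.7%) and 23.3% in HFD samples (22.4% to 24.5%). mt-Atp6 in that same cluster was 19.6% in control (19.1% to 20.2%) and 22.7% in HFD samples (21.8% to 23.5%), without overlap. In cluster 5 mt-Atp6 was 22.4% and 25.4%, in monocyte-like cells 21.4% and 24.7%, and in fibroblast-like cells 20.4% (2 control samples) and 23.7%. Of 9 clusters with at least 10 cells of some sample in both diets, the HFD mean of mt-Atp6 was higher in 8 and that of mt-Co1 lower in 8. In 8 every HFD sample exceeded every control sample for mt-Atp6, several having 1 control sample. For mt-Co1 every HFD sample was lower in 5. Whether these shifts come from diet or from how the libraries were made cannot be told apart.

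**Figure D4:**
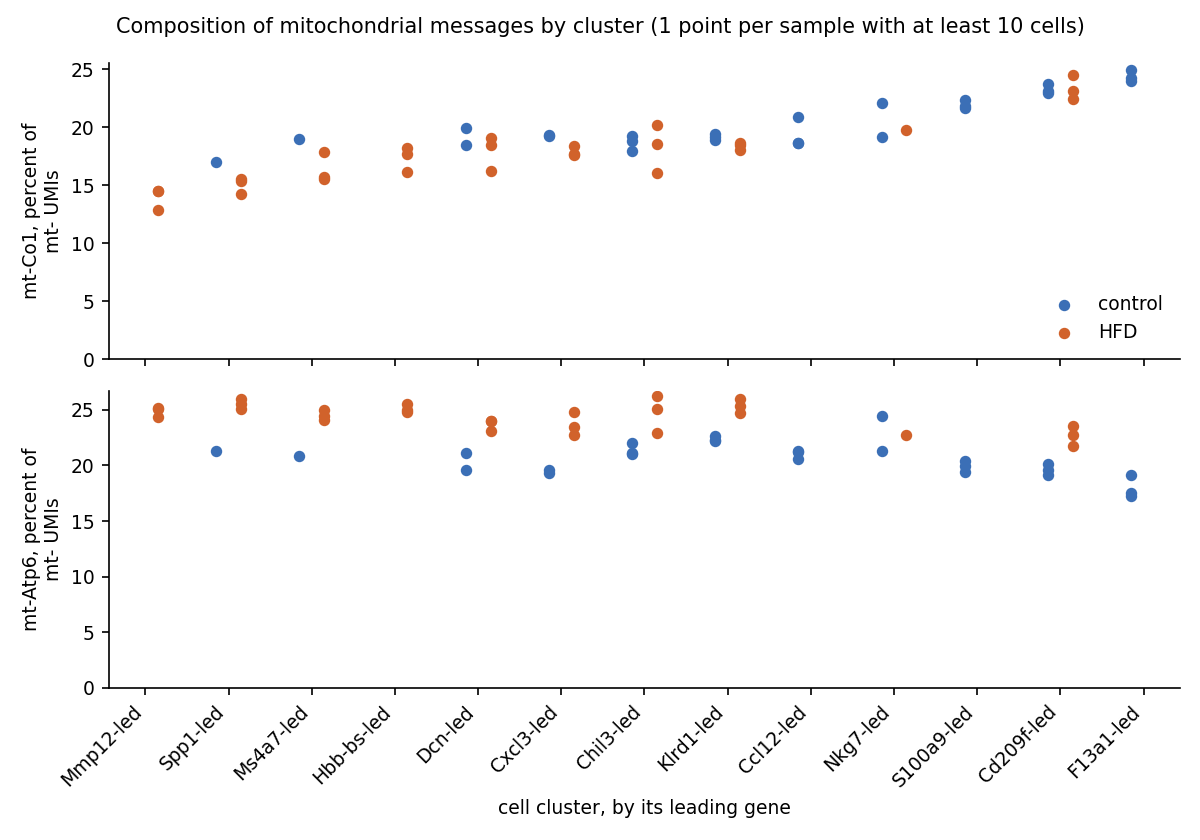
mt-Co1 and mt-Atp6 as percent of mt- UMIs, by cluster; each point is 1 sample with at least 10 cells in that cluster. In the Cd209f-led cluster mt-Co1 is at 23.2% and 23.3% in the 2 diets, whereas mt-Atp6 is at 19.6% in control and 22.7% in HFD samples.

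Cell classes also differed in these genes. Fibroblast-like cells, compared with macrophage-like cells of the same 3 HFD samples, were lower in 52 of 91 members and higher in 3 (edgeR adjusted p below 0.05; 54.2% of all genes called, 28.3% higher and 26.0% lower). DESeq2 called 33 lower and 3 higher. Nuclear complex IV had 12 of 16 lower, complex V 12 of 15, complex III 6 of 8, complex II 3 of 4 and complex I 12 of 35. Cox5a, a subunit of complex IV, measured 187, 196 and 193 plain CPM in fibroblast-like and 488, 434 and 525 in macrophage-like cells of HFD samples 1 to 3. Fibroblast-like cells were lower in each (-1.45 ± 0.11; edgeR). Sdhb (-1.03), Uqcrc1 (-1.02) and Ndufb8 (-0.89) were lower as well. Of the mt- genes, 7 of 13 were lower. The 3 that were higher were Ndufa4l2, Cox8b and Cox6b2.

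Cluster 5 was set against macrophage-like cells in the 3 control samples. There 11 of 88 members were higher and 14 lower (edgeR; 26.9% of all genes called, 12.2% higher and 14.7% lower), and 10 of the 14 were mt- genes. mt-Nd2 measured 400, 486 and 560 plain CPM in cluster 5 and 1024, 1070 and 1432 in macrophage-like cells. The difference was -1.12 ± 0.13 (edgeR). Nuclear complex V went the other way, with 6 of 15 genes higher, among them Atp5c1 (0.76) and Atp5b (0.61). Ndufa6 was higher by 0.93 on the log2 scale. Monocyte-like cells, compared over all 6 samples, were lower than macrophage-like cells in 16 of 87 members, 11 of them mt- genes, and higher in 1, Uqcrfs1 (0.45; edgeR; 18.0% of all genes called, 7.96% higher and 10.1% lower).

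As shares of UMIs, without TMM factors, cluster 5 and monocyte-like cells were compared with macrophage-like cells over all 6 samples. mt- genes made up 1.97% ± 0.35 of UMIs in cluster 5 and 2.15% ± 0.39 in monocyte-like cells, against 3.25% ± 0.43 in macrophage-like cells (SD, n = 6). Both were lower in 6 of 6 samples (exact sign-flip permutation p = 0.031 each, the smallest possible; 0.056 adjusted over 9 comparisons). The nuclear share was lower in 6 of 6 samples in cluster 5 (1.89% against 2.18%; exact sign-flip permutation p = 0.031, adjusted 0.056). In monocyte-like cells it was 2.08% (exact sign-flip permutation p = 0.44). In the TMM-scaled sums of the 3 control samples, by contrast, nuclear members of cluster 5 were called in both directions. The part of scaling and of the samples used was not tested. Among macrophage-like clusters the mt- share was 4.33% ± 0.71 in the F13a1-led control cluster, and the nuclear share was 2.48% ± 0.05 in the Mmp12-led HFD cluster and 1.70% ± 0.08 in the Ccl12-led control cluster (SD, n = 3).

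Several complex IV genes exist as tissue-restricted forms, and all 4 nuclear complex IV genes called over all cells were of this kind. Ndufa4l2, a relative of the complex IV subunit Ndufa4 known as a hypoxia-inducible gene, had 94 UMIs in 55 cells. Of these, 87.2% lay in fibroblast-like cells, where it was seen in 20.4% of cells (95% exact binomial interval 15.4% to 26.1%), against 0.454% of macrophage-like cells. With each cell thinned to 2000 UMIs these shares were 9.09% and 0 of 1064 cells (which at that depth allows up to 0.282% of cells with a UMI, and does not limit expression), and 38 shallower macrophage-like cells were left out. Over all cells it measured 0.55, 0.529 and 0.737 CPM in control and 5.8, 6.74 and 5.93 CPM in HFD samples. The HFD samples were all higher (3.27 ± 0.38; edgeR adjusted p = 0.00046), a count ratio of 11.1 (95% interval 4.57 to 34.9, counting error only). Within fibroblast-like cells it measured 9.14, 59.9 and 29.2 plain CPM in control samples of 3 to 11 cells and 55.2, 59.7 and 46.2 in HFD samples, which overlapped (ratio 2.60, interval 0.977 to 9.79).

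Cox8b, the heart and muscle form of complex IV subunit 8 and a marker of brown fat, had 53 UMIs in 33 cells, 92.5% of them in fibroblast-like cells. It was seen in 12.6% of fibroblast-like cells (8.57% to 17.5%) and 0.363% of macrophage-like cells, or 4.76% and 0.094% when thinned. It measured 0.275, 0 and 0 CPM in control and 3.65, 2.85 and 4.02 CPM in HFD samples. The control total was 1 UMI, so the fitted difference of 4.54 ± 0.68 (edgeR adjusted p = 0.0014) rests on the prior count, and the count ratio was 32.4 (interval 5.56 to 1302). Within fibroblast-like cells it was at 0 in the 24 control cells and at 39.2, 23.9 and 35.7 plain CPM in HFD samples, at least 2.18-fold higher against 3 counts over the control group. Of 6 fat cell markers, Adipoq, Plin1, Lep and Retn were at 0 in fibroblast-like cells, and the list summed to 0 to 9.14 plain CPM in control and 0 to 2.39 in HFD samples. Of 5 brown or beige fat markers, which include Cox8b and Cox7a1 themselves, Ucp1 and Elovl3 were at 0, and the list summed to 0 to 27.4 and 28.7 to 41.0. Over all cells the fibroblast list summed to 946 to 2175 plain CPM in control and 6679 to 7679 in HFD samples. Without fibroblast-like cells neither gene had enough counts to be tested.

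Cox6b2, known as a testis form of a complex IV subunit, was seen in 35.3% of cells of cluster 5 (27.7% to 43.4%) and 6.17% of macrophage-like cells, or 9.87% and 1.41% when thinned. In control samples it was higher in cluster 5 than in macrophage-like cells by 3.21 ± 0.30 (log2; edgeR). Within that cluster it measured 73.3, 116 and 88.1 plain CPM in control and 17.3, 67.6 and 19.2 in HFD samples. The HFD samples were all lower (-1.58 ± 0.43), but the difference did not pass (edgeR adjusted p = 0.053). Over all cells it fell from 23.9, 30.2 and 21.4 CPM to 7.29, 12.2 and 9.52 CPM (-1.39 ± 0.22; edgeR adjusted p = 0.0017), and cluster 5 had 101 cells in control and 52 in HFD samples.

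Cox6a2, the heart and muscle form of subunit 6a, had 73.7% of its 118 UMIs in macrophage-like cells, which were 1102 of the 2195 cells. Beside the common form Cox6a1 it had 87 against 6894 UMIs there, and 9 against 236 in 48 B cell-like cells. In macrophage-like cells it measured 3.6, 3.64 and 5.05 CPM in control and 8.42, 10.8 and 7.37 CPM in HFD samples, without overlap (1.06 ± 0.33; edgeR adjusted p = 0.037). That call was lost with DESeq2, at clustering resolution 0.5, with a replicate block and with entries as deposited. It was also lost without each sample in turn except control sample 3. In HFD samples fibroblast-like cells held none of it in 1456647 UMIs, at least 4.30-fold lower than macrophage-like cells against 3 counts. Cox7a1, another muscle form, differed by -0.26 over all cells and did not pass. Cox4i2, a lung form, had 39 UMIs in 26 cells and was not tested. Cox7b2 and Cox8c, known from testis, were also too sparse. Cox7b2 had 5 UMIs in 2 cells and Cox8c 37 UMIs in 9 cells, all in HFD sample 3, with 29 of the Cox8c UMIs in 1 cell. Of 8 male germ cell genes looked up after these values were seen, that cell held 25 UMIs of Ldhc, 15 of Meig1 and 0 of Prm1, Prm2, Tnp1, Tnp2, Smcp and Odf1. Elsewhere in HFD sample 3 there were 24 UMIs of Prm1, 16 of Prm2 and 13 of Tnp1.

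**Figure D5:**
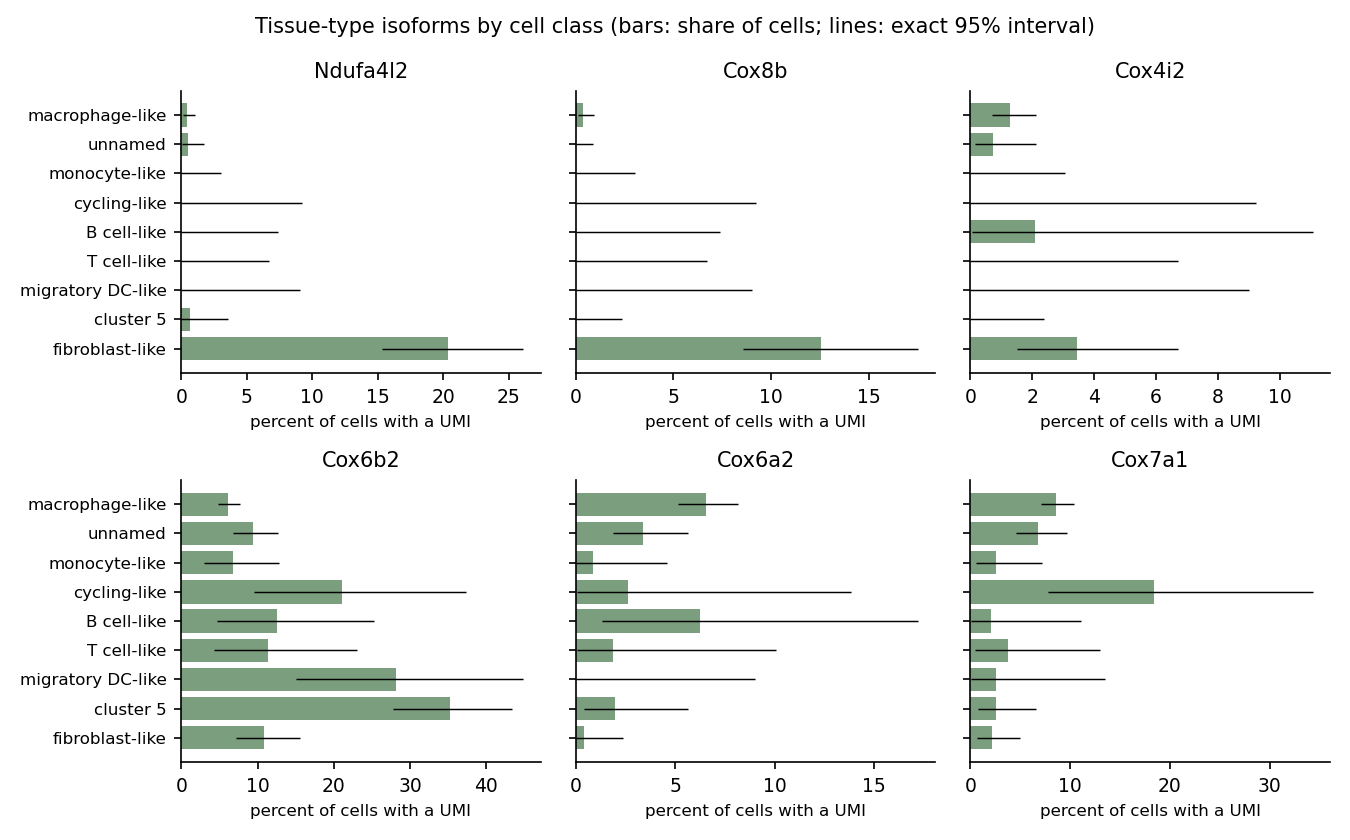
The percent of cells with at least 1 UMI of each tissue-restricted form, by cell class, with exact 95% binomial intervals (counting error only). Ndufa4l2 and Cox8b peak in fibroblast-like cells (20.4% and 12.6%), and Cox6b2 in cluster 5 (35.3%).

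Within single clusters the diet calls were few. In cluster 5, 0 of 86 members passed (4 at an unadjusted p below 0.05; 0 by DESeq2; 5.11% of all genes called by edgeR, 3.11% higher and 2.0% lower). In monocyte-like cells 0 of 83 passed (7 unadjusted; 0 by DESeq2; 0.0589% of all genes). In the Cd209f-led macrophage-like cluster 1 of 85 passed, mt-Nd3 (-0.77 ± 0.18; edgeR adjusted p = 0.025; 4.49% of all genes, 1.9% higher and 2.58% lower), with 11 unadjusted and 3 by DESeq2. That call was lost without control sample 3 and without each HFD sample in turn. The nuclear share there was 1.92% in control and 2.09% in HFD samples and the mt- share 3.80% and 3.24% (exact permutation p = 0.1 each, adjusted 0.3). These sums hold few cells, down to 12 in an HFD sample.

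Whether the diet difference itself differed between classes was tested as an interaction. In cluster 5 the 12 macrophage markers summed to 6046 to 8622 plain CPM in control and 13757 to 31487 in HFD samples, and the 10 lipid-associated markers to 602 to 819 and 1820 to 2328, none at 0. These were among 8 of 28 marker lists without overlap by diet there. Their part in the values of cluster 5 by diet was not tested. Against macrophage-like cells, cluster 5 differed in 3 of 88 members (18 unadjusted; 2.96% of all genes called, 2.08% higher and 0.878% lower). Atp5b measured 506, 502 and 410 plain CPM in control and 415, 264 and 509 in HFD samples of cluster 5, while in macrophage-like cells it measured 332, 350 and 358 and then 543, 520 and 584. The HFD values were all higher in macrophage-like cells and overlapped control in cluster 5 (interaction -1.01 ± 0.22; edgeR adjusted p = 0.0046). Atp5c1 behaved in the same way (-0.82 ± 0.22; edgeR adjusted p = 0.029), and none of 15 nuclear complex V genes had an interaction above 0 (median -0.59). mt-Co1 in cluster 5 measured 3098, 3815 and 4225 plain CPM in control and 3375, 4665 and 2996 in HFD samples, an overlap, against a fall in macrophage-like cells (0.55 ± 0.15; edgeR adjusted p = 0.032). Monocyte-like cells differed in 0 of 87 members (edgeR; 9 unadjusted; 0.816% of all genes called, 0.6% higher and 0.216% lower).

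Cell by cell, macrophage-like cells thinned to 2000 UMIs held a median of 36, 39 and 39 nuclear-member UMIs in control and 45, 43 and 45 in HFD samples. For mt- genes the medians were 61.5, 60 and 75 in control against 53, 53 and 51 in HFD samples. Both pairs were without overlap, nuclear higher and mt- lower. Cells too shallow for thinning numbered 1, 14 and 23 in control and 0 in each HFD sample. Unnamed cells, outside this class, held nuclear medians of 41, 46 and 44 in control and 38, 35 and 39.5 in HFD samples. Those cells came mostly from a different cluster in each diet. Across macrophage-like cells of 1 sample the Spearman correlation of nuclear with mt- UMIs ranged from -0.23 to -0.05. Without cells above 10% mt- UMIs it ranged from -0.15 to 0.015. Both ranges are descriptions over cells that share a library. In 81 cells mt- genes exceeded 10% of UMIs, with a median depth of 2773 UMIs and a nuclear share of 1.47% against 2.15% in the other cells.

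Further genes linked to mitochondrial function were counted by lists, and not all of them encode mitochondrial proteins. Of all genes, 13.2% were higher and 17.0% lower in macrophage-like sums, and 15.4% and 17.4% over all cells. In macrophage-like cells 16 of 42 mitochondrial ribosome genes rose and none fell, with a median of 0.36, and over all cells 8 rose and 2 fell. Among carriers and suppliers of the chain, 8 of 22 rose and none fell in macrophage-like cells (median 0.50). Slc25a4, the ADP/ATP carrier, went from 144 ± 0.63 to 263 ± 9.6 CPM over all cells (SD, n = 3; 0.87 ± 0.08; edgeR adjusted p = 0.00019). Ckb, brain-type creatine kinase, differed by 0.91 over all cells and 1.43 in macrophage-like cells, and the outer membrane channels Vdac1 and Vdac2 by 0.87 and 0.93 in the latter.

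Of 20 genes of the TCA cycle and its pyruvate supply, 7 rose and 1 fell in macrophage-like cells. Mpc1, a subunit of the pyruvate carrier, differed by 0.88, and Fh1, fumarase, by -0.53. Of 37 assembly factors 3 rose and 1 fell, Cox16 (-0.62), a complex IV factor, while the complex IV factor Cox20 rose (0.54). Of 20 genes that copy and read mitochondrial DNA 0 rose and 2 fell, among them Polg2, the accessory subunit of the mitochondrial DNA polymerase (-1.68). Of 12 regulators 2 rose and 3 fell. Myc (0.84) and Pparg (1.31), transcription factors, rose, and Sirt1 (-1.53), a deacetylase, and Hif1a (-0.81), the hypoxia factor, fell. Of 15 uncoupling and antioxidant genes 2 rose and 2 fell. Atpif1, the inhibitor of ATP synthase, rose (0.51) and Sod1, superoxide dismutase, fell (-0.78).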

How the data were processed

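Single-cell RNA libraries of 3 control and 3 HFD samples were analysed from the matrices the authors deposited, which hold whole-number UMI counts per gene and cell, not normalized. Per the submitters' processing notes, the build was mm9 and the tools included Seurat 2.4 and Cell Ranger, with no role given; the way cells were called was not given in the sources used here. The members, gene lists and tests were chosen with earlier results of these data known, and the thresholds for naming clusters were chosen after the data were seen.

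Cells with at least 200 genes were kept, each barcode in the sample with most UMIs, and doublets were not removed. The alternatives count entries as deposited, use barcodes listed in 1 sample, or drop cells above 10% mt- UMIs. Entries as deposited were clustered and named anew, so their macrophage-like class is not the same set of cells. Counts were scaled to 10000 and log-transformed, and 2000 variable genes without the members were reduced to 30 components (scanpy 1.11.5), then clustered with leidenalg 0.10.2 (20 neighbours, resolution 1). Summed counts were tested with edgeR 4.0.16 (quasi-likelihood, TMM, filterByExpr) under R 4.3.3, Benjamini-Hochberg adjusted over all genes tested, threshold 0.05. Classes entered with at least 20 cells per sample, or 10 for monocyte-like cells, single clusters and interactions. DESeq2 1.42.0 was the alternative. Shares were compared with exact permutation tests (scipy 1.17.1, two-sided). Genes named were the 12 of smallest p per direction among the called members (nuclear and mt- apart), 8 per class contrast, and 4 per list. On simulated data edgeR recovered 65% of 2-fold and 95% of 4-fold changes over all cells, and 53% and 98% in macrophage-like sums. For the interaction of cluster 5 it recovered 13% and 49%. Genes left unchanged made up 4.8%, 5.6% and 10.1% of the simulated calls, in the same order. Only 100 genes per size were changed, and changes under 2-fold, like most of those named here, were not simulated. Intervals are 95% exact binomial and, like the limit of 3 counts behind a 0, cover counting error only. Promoter windows came from RefSeq (GRCm38.p6).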

Additional observations from a re-analysis of the deposited data

Results flagged for a closer look

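The diet difference itself differed between cluster 5 and macrophage-like cells for 3 members by the interaction term (edgeR). These were Atp5b (-1.01), Atp5c1 (-0.82) and mt-Co1 (0.55). The numbers of cells behind the cluster 5 values are small, 15 to 54 per sample. On simulated data, with changes of 2-fold and 4-fold only, 10.1% of the calls of this interaction were genes left unchanged. Macrophage markers in that cluster also differed by diet, from 6046 to 8622 plain CPM in control to 13757 to 31487 in HFD samples, and their part was not tested.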

How the results depend on the processing

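Over all cells the 27 calls became 14 with barcodes listed in exactly 1 sample, 14 with a replicate block, and 12 to 23 with a sample left out. In macrophage-like cells the 28 calls became 11 with entries as deposited, 9 with barcodes listed in exactly 1 sample, 13 with a replicate block, and 8 to 34 with a sample left out. Shares of all genes called are given only for the main settings. Samples with the same number did not deviate together (correlations -0.21 to -0.02). Values were centred within each diet of 3 samples, so this check cannot exclude a pairing. Fibroblast-like against macrophage-like cells gave 36 calls with DESeq2 in place of 55. In cluster 5 the 0 diet calls became 2 without a filter on low counts, 1 with the replicate block and 0 to 1 with a sample left out. In monocyte-like cells they became 2, and the monocyte-like interaction 1, without that filter. In the Cd209f-led cluster 1 call became 3 with DESeq2, 6 without the filter, 0 with the block and 0 to 1 with a sample left out. With barcodes listed in exactly 1 sample the difference in mt- share of macrophage-like cells turned to 0.337 percentage points, and Sdhc over all cells to -0.0201. With entries as deposited, Atp5f1 (-0.0698), Atp5o (-0.10), mt-Atp8 (0.23) and mt-Nd3 (0.0157) turned in macrophage-like cells. The cause was not tested. Values of single members gave 1331 in the same state, 203 weaker and 51 stronger. The monocyte-like contrast could not be run at 20 cells per sample. Samples with few cells limit the class sums.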
